A study of Mus musculus with 9 samples.

Results

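The genes described here are the histone genes read by the arrays under the symbols H1f, H2ac, H2bc, H3c and H4c followed by a number, that is the linker histone genes and the replication-dependent core histone genes. They were chosen by a rule on the symbol that uses no measured value, though with earlier results of these data known. Of the 24011 named genes 39 fitted, each through 1 probe set. They comprised 8 H1 genes, 9 H2A genes, 12 H2B genes, 7 H3 genes and 3 H4 genes, 30 of them on chromosome 13, 6 on chromosome 3, 2 on chromosome 6 and 1 on chromosome 15. RNA came from mouse primary myoblasts, the dividing progeny of the muscle stem cells called satellite cells, on 9 Affymetrix arrays of 3 groups with 3 arrays each. The GREM1 group received 500 ng/ml recombinant GREM1, a secreted BMP antagonist. The BMP4 group received 100 ng/ml recombinant BMP4, one of the BMP ligands that GREM1 can bind, and the control group was mock-treated. All 3 groups had grown in medium with 20% fetal bovine serum and basic FGF, were moved to 2% horse serum and were taken after 24 h. The labels name no strain, age or sex of the mice and do not say whether replicates were separate cultures, so p-values measure only the spread between these samples.

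Core histones H2A, H2B, H3 and H4 form the protein spool of the nucleosome, and linker histone H1 binds where DNA enters and leaves it. Most of their genes lie in clusters, have no introns and are transcribed mainly while DNA is copied in S phase. Their mRNAs end in a stem-loop bound by the protein SLBP in place of a poly(A) tail. Myoblasts moved to low serum leave the cell cycle as they differentiate, and their need for new histones falls with it. Copies of one class are close to identical in sequence, so that a probe set may also have read RNA of its paralogs, and each value belongs to the probe set of the named gene.

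Values are log2 expression from robust multi-array average (RMA), and a difference of 1 on this scale is a 2-fold change. Testing required a value over the 30th percentile of named genes (3.89 to 4.02, by array) on 3 or more arrays, and 28 of the 39 members met this. The 11 others, H1f6, H1f7, H2ac8, H2ac11, H2bc1, H2bc14, H2bc22, H3c1, H3c7, H3c8 and H3c11, had values between 2.00 and 4.02 on every array and are not discussed further. H1f6 and H1f7 are linker histones of male germ cells, and H2bc1 encodes a testis H2B. H1f7, with 1 array above its percentile, was the closest outside, and H1f1 and H2ac4, with 4 arrays each, were the closest inside. Counts over the 28 tested genes are therefore descriptions. Array medians over all probe sets lay between 5.00 and 5.12. In a principal component analysis control replicate 1 stood apart on the second component (20.9% of the variance), at 31.6, the next array being BMP4 replicate 1 at 6.12, and results that turn on it are given with and without it. All 13 myogenic markers listed, among them Pax7, Myf5, Myod1 and Des, passed the filter. Ptprc, Kdr and Pdgfra, markers of leukocytes, endothelial cells and fibroblasts, did not, but Cd68, Pecam1 and Col3a1 of the same lists did. Of the markers measured, 3 of 6 for leukocytes, 4 of 8 for endothelial cells, 4 of 8 for fibroblasts and 5 of 6 for pericytes passed.

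With GREM1, most histone genes measured lower than in control myoblasts, while 4 H2B genes, the H1 gene H1f2 and the H2A gene H2ac6 did not. The difference was below 0 for 22 of 28 genes, against 51.4% of all genes tested, and above 0 for 6, against 48.6%. The median difference over the 28 was -0.39, with a range from -1.08 to 0.66, and the median over all genes tested was -0.0057. At an adjusted p under 0.05 over all 17141 genes (limma, Benjamini-Hochberg), 1 member fell (H4c12), where 2.21% of all genes did, and 1 rose (H2bc8), where 2.08% did. At an unadjusted p under 0.05 in limma 9 members were lower (10.8% of all genes) and 1 higher (9.19%). Groups did not overlap for 9 members with the GREM1 arrays lower, where this held for 12.7% of all genes, and for 1 member with them higher, where this held for 11.3%. Same-numbered GREM1 and control arrays deviated together, though for number 2 less (r = 0.118) than 1 pair of different numbers (0.159), and the fit with the replicate number as a block is also given. With the block 7 members fell (6% of all genes) and 1 rose (5.58%). The 7 were H4c12, H4c9, H2ac10, H2ac20, H2ac22, H2bc13 and H2bc18, and the riser was again H2bc8. Without the block 0 members passed in either direction when GREM1 replicate 1 or 2 was left out, the H2bc8 call was also lost without control replicate 1 or 3, and H2ac20 joined H4c12 without BMP4 replicate 1 or 3. With the block 8, 3 and 1 members fell when replicate number 1, 2 and 3 was left out of every group. Shares of all genes were not counted with arrays left out.

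**Figure D1:**
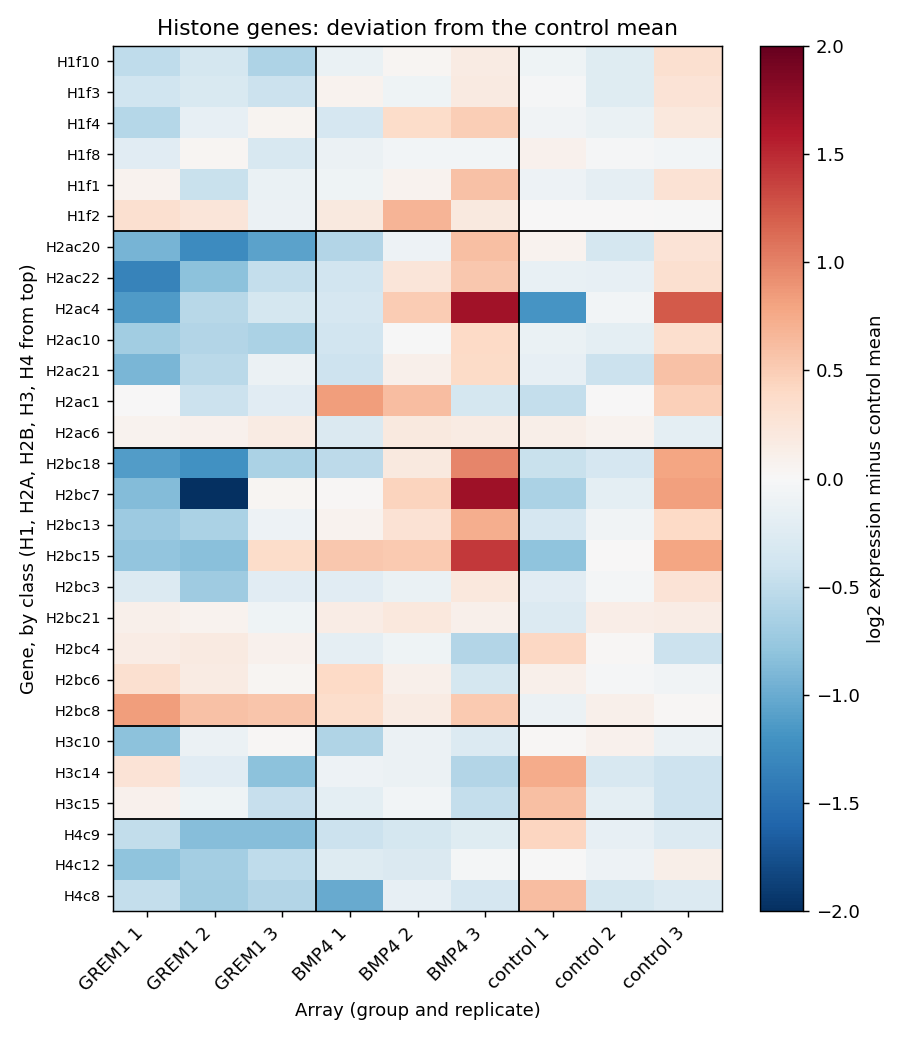
Log2 expression of the 28 tested histone genes (down the page, by class H1, H2A, H2B, H3 and H4) minus the control mean of the gene, on each of 9 arrays (across). Blue is below and red above the control mean, the GREM1 columns are mostly blue, H2bc8 is red on all 3 of them, and control 1 stands out in H3c14, H3c15, H4c9 and H4c8.

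All 3 H4 genes were lower on every GREM1 array than on any control array. H4c12 had values of 6.87, 7.0 and 7.16 on the GREM1 arrays, 7.42, 7.38 and 7.64 on the BMP4 arrays, and 7.66, 7.57 and 7.79 on the control arrays. The means were 7.01 ± 0.14, 7.48 ± 0.14 and 7.67 ± 0.11 for GREM1, BMP4 and control (SD, n = 3 each). The GREM1 arrays lay below all others, and the BMP4 arrays overlapped the controls. H4c12 fell by 0.66 ± 0.11 (SE) with GREM1, a 1.58-fold difference (limma, adjusted p = 0.0120), and the call was lost without GREM1 replicate 1 or 2 (adjusted p = 0.0549 and 0.0531). Without control replicate 1 the difference was -0.67 (adjusted p = 0.0401). H4c9 had 5.42, 5.06 and 5.06 on the GREM1 arrays, 5.48, 5.56 and 5.66 on the BMP4 arrays, and 6.35, 5.74 and 5.64 on the control arrays. Its control replicate 1 was far above the other controls. The difference with GREM1 was -0.73 ± 0.18 (limma, adjusted p = 0.0529, or 0.0174 with the replicate block), and -0.51 without control replicate 1. H4c8 showed the same high control replicate 1, with 4.33, 4.09 and 4.20 on the GREM1 arrays against 5.41, 4.45 and 4.53 on the control arrays. Its difference of -0.59 ± 0.27 did not pass (adjusted p = 0.271) and was -0.28 without that array.

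The sequences before the start of H4c12, of the H2A genes H2ac20 and H2ac22 and of H2bc8 are shown as 1 gene that fell, 2 that fell only with the block and the 1 that rose with GREM1. Each window holds 250 bases before and 50 bases from the RefSeq start on build GRCm38.p6, on the strand of the gene: H4c12 at chr13:21750504-21750803 on the minus strand, H2ac20 at chr3:96220831-96221130 on the minus strand, H2ac22 at chr13:21787199-21787498 on the minus strand and H2bc8 at chr13:23571150-23571449 on the plus strand. Capitals mark the TATA box (TATAAA), the CCAAT box (CCAAT) and the octamer (ATTTGCAT), searched on both strands. No match overlaps another in the 4 windows.
H4c12: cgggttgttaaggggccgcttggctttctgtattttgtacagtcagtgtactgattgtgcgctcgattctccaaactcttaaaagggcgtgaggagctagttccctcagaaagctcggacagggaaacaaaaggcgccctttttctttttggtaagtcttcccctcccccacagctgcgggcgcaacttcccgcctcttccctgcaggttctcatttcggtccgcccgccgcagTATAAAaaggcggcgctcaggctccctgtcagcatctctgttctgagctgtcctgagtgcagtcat
H2ac20: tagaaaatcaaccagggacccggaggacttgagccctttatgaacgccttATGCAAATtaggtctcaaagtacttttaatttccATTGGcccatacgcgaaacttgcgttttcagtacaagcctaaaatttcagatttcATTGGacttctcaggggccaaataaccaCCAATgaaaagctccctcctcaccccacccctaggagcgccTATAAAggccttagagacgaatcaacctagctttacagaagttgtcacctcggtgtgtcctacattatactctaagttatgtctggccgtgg
H2ac22: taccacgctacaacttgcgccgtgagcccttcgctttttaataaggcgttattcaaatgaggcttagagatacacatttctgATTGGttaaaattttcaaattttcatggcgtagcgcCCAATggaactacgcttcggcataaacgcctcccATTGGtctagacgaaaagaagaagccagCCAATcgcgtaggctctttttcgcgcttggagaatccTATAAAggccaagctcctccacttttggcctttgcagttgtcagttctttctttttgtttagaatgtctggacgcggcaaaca
H2bc8: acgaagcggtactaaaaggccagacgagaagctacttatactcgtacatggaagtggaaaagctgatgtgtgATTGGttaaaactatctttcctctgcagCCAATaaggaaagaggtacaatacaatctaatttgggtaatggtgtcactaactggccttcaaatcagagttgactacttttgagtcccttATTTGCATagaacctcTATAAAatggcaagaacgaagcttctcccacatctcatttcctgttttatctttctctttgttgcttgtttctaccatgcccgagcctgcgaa

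A window was found for 35 of the 39 members. The octamer, which the factors OCT1 and OCT2 bind and which is known as a control element of H2B genes, was in 6 of 10 H2B genes with a window and in 5 of 9 H2A genes, but in 0 of 8 H1, 0 of 5 H3 and 0 of 3 H4 genes. It was held by 1.74% of all 32851 RefSeq promoter windows. The windows of H2bc8 and H2ac8 share 279 bases and those of H2bc1 and H2ac1 share 220, so that 1 octamer can count for both classes. A member with more than 1 window, such as H2bc6, counted if any of them held the octamer. TATAAA was in 20 of the 35 members and in 13.6% of all windows, and CCAAT in 30 members and in 37.4% of all windows. All H2A, H2B and H3 genes with a window held CCAAT, and 0 of 3 H4 genes did. H2ac20, lower with GREM1, and H2bc8, higher with GREM1, both held all 3 motifs. A motif is only a match of letters, and these windows were not measured in the study.

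Among the H2A genes, 6 of 7 measured lower with GREM1, and the median difference was -0.64. H2ac20 had 7.58, 7.25 and 7.43 on the GREM1 arrays, 7.92, 8.41 and 9.11 on the BMP4 arrays, and 8.58, 8.15 and 8.78 on the control arrays. The GREM1 arrays were lowest without overlap, and the BMP4 arrays spread over the whole control range and beyond it. The difference with GREM1 was -1.08 ± 0.27, 2.12-fold lower in the mean (limma, adjusted p = 0.0556, or 0.0164 with the replicate block). H2ac22 had 7.32, 7.85 and 8.19 on the GREM1 arrays, 8.27, 8.90 and 9.20 on the BMP4 arrays, and 8.51, 8.50 and 8.98 on the control arrays. Its GREM1 arrays also lay below all others. The difference of -0.88 ± 0.27 passed only with the block (limma, adjusted p = 0.105, or 0.00366 with it). H2ac10 had 7.01, 7.13 and 7.08 on the GREM1 arrays, a spread much smaller than the 7.32 to 8.12 of the BMP4 arrays and the 7.51 to 8.05 of the control arrays. It differed by -0.64 ± 0.20 (limma, adjusted p = 0.105, or 0.0223 with the block). H2ac21 and H2ac4 differed by -0.52 ± 0.30 and -0.68 ± 0.61, with overlapping groups. H2ac4 varied more within groups than between them, from 2.94 to 5.34 in the controls alone, and passed the filter through BMP4 and control arrays. Its difference was -1.27 without control replicate 1 and -0.067 without control replicate 3. H2ac1, a testis H2A, differed by -0.21 ± 0.31. H2ac6 was the exception in sign, at 0.11 ± 0.14 (adjusted p = 0.722).

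**Figure D2:**
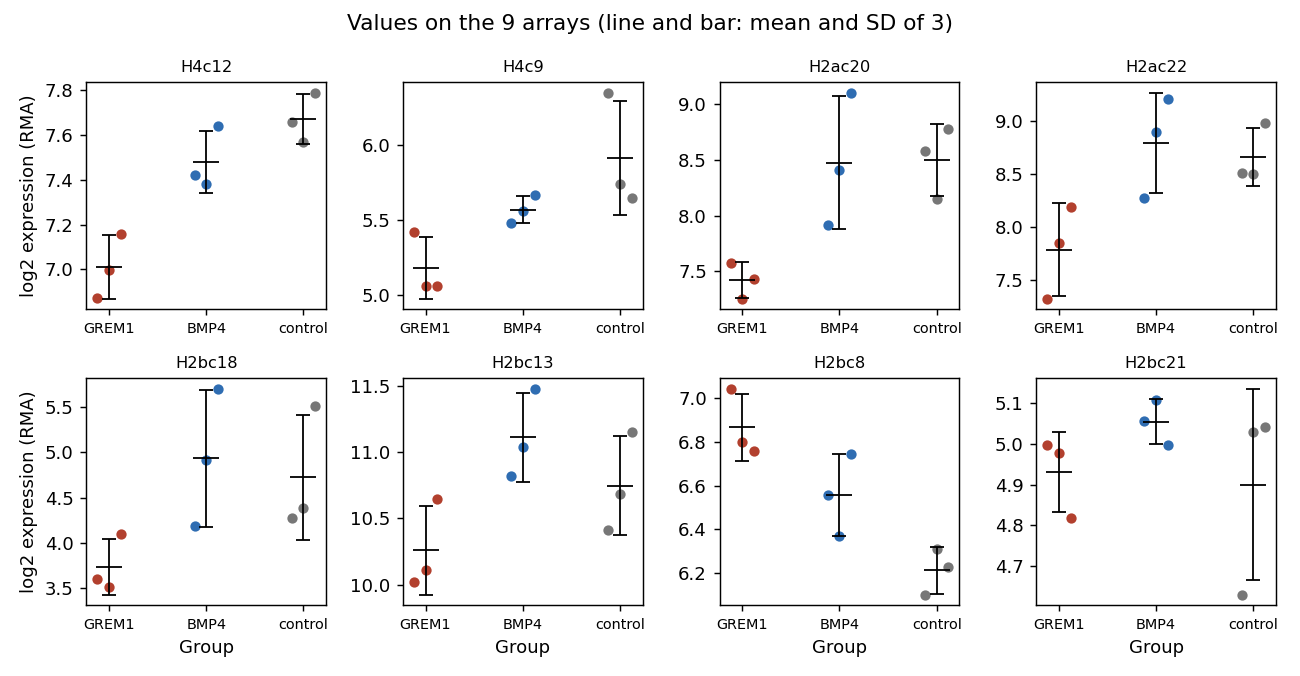
Log2 expression on every array (points) of 8 histone genes in the GREM1, BMP4 and control groups, with the mean and SD of 3 arrays, each panel on its own scale. The GREM1 points lie below all control points for H4c12, H4c9, H2ac20, H2ac22 and H2bc18 and above them for H2bc8, and they overlap for H2bc13 and H2bc21.

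The H2B genes divided by sign, with 5 of 9 lower and 4 higher with GREM1. H2bc8 had 7.04, 6.80 and 6.76 on the GREM1 arrays, 6.56, 6.37 and 6.74 on the BMP4 arrays, and 6.10, 6.31 and 6.23 on the control arrays. The controls were lowest in every case, with no overlap with either treated group. H2bc8 rose by 0.66 ± 0.12 with GREM1, a 1.58-fold difference (limma, adjusted p = 0.0186). The call was lost without GREM1 replicate 1 or 2 (adjusted p = 0.0717 and 0.0588) or control replicate 1 or 3 (0.0614 and 0.0602), while the difference stayed between 0.51 and 0.74 under every alternative run. H2bc6, H2bc4 and H2bc21 differed by 0.17 ± 0.17, 0.14 ± 0.20 and 0.031 ± 0.12 (adjusted p = 0.628, 0.751 and 0.921). H2bc4 and H2bc21 are among the histone genes known to give polyadenylated transcripts in differentiated cells, as is the linker gene H1f2.

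On the lower side of the H2B genes, H2bc18 had 3.60, 3.52 and 4.09 on the GREM1 arrays, 4.19, 4.91 and 5.70 on the BMP4 arrays, and 4.27, 4.38 and 5.51 on the control arrays. It differed by -0.99 ± 0.41 with GREM1 (limma, adjusted p = 0.212, or 0.0117 with the replicate block), and 2 of its 3 GREM1 values were below the level used to filter. H2bc13 had 10.02, 10.11 and 10.65 on the GREM1 arrays, 10.82, 11.04 and 11.48 on the BMP4 arrays, and 10.41, 10.68 and 11.15 on the control arrays. The GREM1 and control ranges overlapped, and replicate 3 was the highest of each group. The difference was -0.49 ± 0.24 without the block and had a far smaller SE with it, 0.076 (limma, adjusted p = 0.290, or 0.00549 with it). H2bc7, H2bc15 and H2bc3 differed by -0.95 ± 0.58, -0.42 ± 0.44 and -0.40 ± 0.18 and did not pass either way. With single arrays left out the difference lay between -0.82 and -0.026 for H2bc15 (without control replicates 1 and 3), between -0.68 and -0.29 for H2bc13 (without GREM1 replicate 3 and control replicate 3) and between -1.21 and -0.59 for H2bc18 (without control replicates 1 and 3). H2bc7 had the widest GREM1 range of the H2B genes, with 5.41, 4.26 and 6.32.

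Of the 6 linker histone genes tested, 5 measured lower with GREM1 and 0 passed, with or without the block. H1f10, a linker histone whose expression is not tied to replication, had 5.23, 5.39 and 5.14 on the GREM1 arrays, 5.61, 5.78 and 5.92 on the BMP4 arrays, and 5.66, 5.51 and 6.07 on the control arrays. It differed by -0.49 ± 0.15 with non-overlapping groups (limma, adjusted p = 0.0978). H1f3 had 4.50, 4.59 and 4.47 on the GREM1 arrays against 4.87, 4.66 and 5.17 on the control arrays, a difference of -0.38 ± 0.13 (adjusted p = 0.133). H1f4, H1f1 and the oocyte linker histone H1f8 differed by -0.23, -0.17 and -0.17. H1f2 had 6.60, 6.52 and 6.16 on the GREM1 arrays, 6.48, 6.97 and 6.48 on the BMP4 arrays, and 6.29, 6.29 and 6.27 on the control arrays, which lay very close together. Its difference with GREM1 was 0.15 ± 0.15 (adjusted p = 0.660). The somatic linker genes H1f2 and H1f3 thus had differences of opposite sign, and whether they differed from each other was not tested.

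The H3 genes gave no call. H3c10, H3c14 and H3c15 differed by -0.30 ± 0.21, -0.25 ± 0.34 and -0.15 ± 0.25 with GREM1 (limma, adjusted p = 0.463, 0.736 and 0.789). H3c14 had 6.55, 6.05 and 5.45 on the GREM1 arrays, 6.16, 6.15 and 5.69 on the BMP4 arrays, and 7.0, 5.95 and 5.85 on the control arrays. H3c15, a near-identical gene also on chromosome 3, followed the same course with 6.40, 6.22 and 5.85 on the GREM1 arrays, 6.12, 6.26 and 5.84 on the BMP4 arrays, and 6.92, 6.12 and 5.89 on the control arrays. Control replicate 1 was the highest of the 9 arrays for both, and without it the differences were 0.12 and 0.15. Replicate 3 was the lowest of each group in H3c14 and H3c15, and also in the H2B genes H2bc4 and H2bc6. It was the highest of each group in H2bc3, H2bc7, H2bc13, H2bc15, H2bc18, H2ac4, H2ac21, H2ac22, H1f4 and H4c12.

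**Figure D3:**
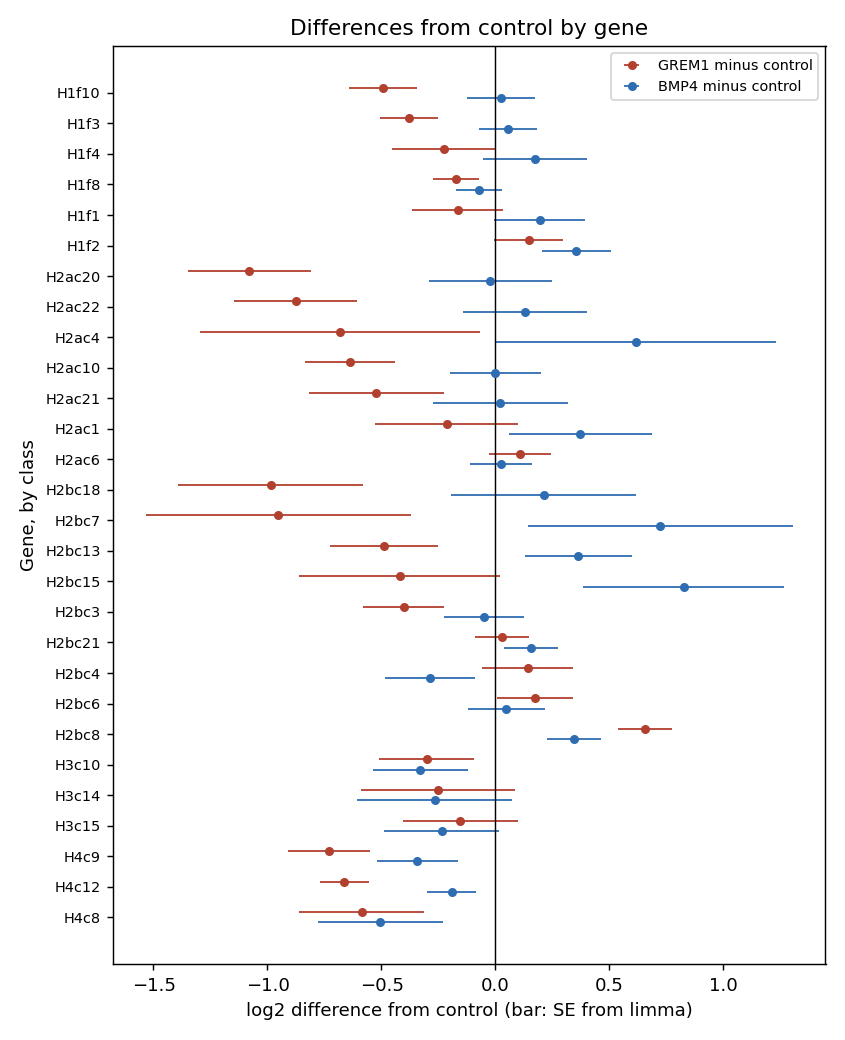
Log2 difference from control with its SE from limma for each of the 28 tested histone genes, by class, for GREM1 (red) and BMP4 (blue), which share the 3 control arrays. The H4 genes lie left of 0 for both, H2ac20, H2ac22 and H2bc18 lie left of 0 for GREM1 and further right for BMP4, and H2bc8 lies right of 0 for both.

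Genes that lie side by side did not always move alike. In the RefSeq gene order 15 pairs of members are adjacent, and in 7 pairs both were tested. H2ac20 and H2bc21 are neighbours on chromosome 3. H2ac20 differed by -1.08 with GREM1, whereas H2bc21 had 5.00, 4.98 and 4.82 on the GREM1 arrays, 5.06, 5.11 and 5.00 on the BMP4 arrays, and 4.63, 5.03 and 5.04 on the control arrays, with overlapping groups. H2bc8 and H2bc7 are neighbours on chromosome 13, and their differences were 0.66 and -0.95, the second with an SE of 0.58. The neighbours H4c8 and H2ac10 had -0.59 and -0.64, H2bc3 and H2ac4 -0.40 and -0.68, H2ac21 and H2ac20 -0.52 and -1.08, H2ac6 and H2bc4 0.11 and 0.14, and H2bc21 and H3c15 0.031 and -0.15. H2bc8 also shares 279 bases of its promoter window, on the opposite strand, with H2ac8, and H2ac22 shares 261 bases with H2bc22. H2ac8 and H2bc22 lay below the filter on all 9 arrays, at 2.37 to 2.91 and 2.80 to 3.29. The difference between neighbours was not tested.

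With BMP4, no histone gene was called. In limma 0 of 28 members passed in either direction, with or without the replicate block, where 0.0933% of all genes rose and 0.0233% fell (0.303% and 0.0758% with the block). At an unadjusted p under 0.05, 2 members were higher (4.03% of all genes) and 0 lower (3.99%). The median difference was 0.036, and 17 genes lay above 0 (48.2% of all genes) and 11 below (51.8%). The 2 with non-overlapping groups were H2bc8, at 0.34 ± 0.12 (adjusted p = 0.520), and H1f2, at 0.36 ± 0.15 (adjusted p = 0.607), both higher with BMP4, where 5.31% of all genes did not overlap in that direction. In the other direction 0 members and 5.9% of all genes did not overlap. The H2B genes H2bc15, H2bc7 and H2bc13 were at 0.83 ± 0.44, 0.72 ± 0.58 and 0.36 ± 0.24, and the H2A gene H2ac4 at 0.62 ± 0.61, each with BMP4 arrays that overlapped the controls. All 3 H4 genes and all 3 H3 genes were below 0. Without control replicate 1, however, H3c14 and H3c15 lay above 0, at 0.10 and 0.068, and H4c8 and H4c9 differed less. H4c8, H4c9 and H4c12 stood at -0.51 ± 0.27, -0.34 ± 0.18 and -0.19 ± 0.11 (adjusted p = 0.678, 0.663 and 0.694), and H3c10 at -0.33 ± 0.21 (adjusted p = 0.721). These values and those with GREM1 share the control arrays, among which control replicate 1 was high in H3c14, H3c15, H4c8 and H4c9.

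The difference of BMP4 from GREM1 is taken between their own arrays, and the control arrays enter only the estimate of the spread. Here 2 members were higher with BMP4 (3.62% of all genes) and 0 lower (2.83%), with a median difference of 0.39 over the 28. H4c12 was higher by 0.47 ± 0.11 (limma, adjusted p = 0.0321) and H2ac20 by 1.06 ± 0.27 (adjusted p = 0.0498). Both calls were lost in the fit of only these 2 groups (limma, adjusted p = 0.0547 for H4c12 and 0.0792 for H2ac20), in which the linker genes H1f10, at 0.52, and H1f3, at 0.43, passed in their place (adjusted p = 0.0425 and 0.0403). When single BMP4 or GREM1 arrays were left out, H4c12 passed only without GREM1 replicate 3 (adjusted p = 0.0330) and H2ac20 only without BMP4 replicate 1 (0.0169), and H2ac20 was also lost without any one control array. At an unadjusted p under 0.05 in limma 10 members were higher with BMP4 (10.1% of all genes) and 1 lower (9.31%). Groups did not overlap for 11 members with BMP4 higher (12.3% of all genes) and for 2 with BMP4 lower (12.2%). The 11 were H1f3, H1f10, H2ac4, H2ac10, H2ac20, H2ac22, H2bc13, H2bc15, H2bc18, H4c9 and H4c12. Among them H2ac4 had passed the filter only through BMP4 and control arrays. Its GREM1 values of 2.97, 3.55 and 3.76 were all below the level used to filter. Mean differences above 1, beside H2ac20, were 1.68 ± 0.58 for H2bc7, 1.30 ± 0.61 for H2ac4, 1.25 ± 0.44 for H2bc15, 1.20 ± 0.41 for H2bc18 and 1.01 ± 0.27 for H2ac22, and none of these 5 passed. H2bc15 had 8.61, 8.59 and 9.49 on the BMP4 arrays against 7.29, 7.24 and 8.44 on the GREM1 arrays. The 2 with BMP4 lower were H2bc4, at -0.43 ± 0.20, with 9.96, 10.05 and 9.55 on the BMP4 arrays against 10.30, 10.32 and 10.23 on the GREM1 arrays, and H2bc8, at -0.31 ± 0.12 (adjusted p = 0.277 and 0.181). H2bc8 was thus higher with GREM1 than on any BMP4 or control array.

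The machinery that makes and handles histone mRNA was listed separately. Of 16 tested genes of histone mRNA transcription and end processing, 2 fell with GREM1 (3 with the block) and 0 rose. Over all genes tested 2.21% fell and 2.08% rose with GREM1 (6% and 5.58% with the block). These shares also belong beside the counts of the lists below. Slbp, which binds the stem-loop of histone mRNA and is itself made for S phase, had 7.69, 7.57 and 7.82 on the GREM1 arrays, 8.05, 8.01 and 8.08 on the BMP4 arrays, and 8.02, 8.04 and 8.24 on the control arrays. It fell by 0.41 ± 0.093 with GREM1 (limma, adjusted p = 0.0420). Eri1, an exonuclease that trims and degrades histone mRNA, fell by 0.43 ± 0.082 (adjusted p = 0.0230). Npat and Casp8ap2, which act at histone genes in the nuclear body where these are transcribed, were at -0.38 and -0.34 (adjusted p = 0.151 and 0.262, or 0.0661 and 0.0330 with the block). The list median was -0.059. With BMP4, Slbp, Eri1, Npat and Casp8ap2 differed from control by -0.055, -0.053, -0.027 and -0.022, and 0 of 16 passed.

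Among 21 tested histone chaperones and deposition factors, 1 fell with GREM1 (5 with the block) and 0 rose, and with BMP4 0 changed. The gene that fell was Chaf1a, the large subunit of the factor that places new H3 and H4 on copied DNA, by 0.68 ± 0.115 (limma, adjusted p = 0.0145). The histone chaperones Nasp and Nap1l1 were at -0.43 and -0.31 and the chromatin protein Dek at -0.48 (adjusted p = 0.0879, 0.126 and 0.0667, or 0.0117, 0.0433 and 0.0163 with the block). Of 10 replacement and variant histones outside the symbol rule 1 fell with GREM1 (4 with the block) and 0 rose. H2aj, an H2A variant, fell by 0.51 ± 0.10 (adjusted p = 0.0258). The centromere histone Cenpa, H2az1 and the replacement H3 gene H3f3b stood at -0.60, -0.52 and -0.37 (adjusted p = 0.150, 0.0859 and 0.0520, or 0.00380, 0.0340 and 0.0314 with the block).

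Replication genes and mitosis genes were lower on the same arrays as the histone genes. Of 47 tested DNA replication and G1/S genes 10 fell and 1 rose with GREM1 (26 and 1 with the block), and of 29 mitosis genes 9 fell and 0 rose (27 and 0 with the block). With BMP4 0 of either list changed. The thymidylate synthase gene Tyms fell by 0.99 ± 0.14 and the polymerase subunit gene Pole by 0.81 ± 0.14 with GREM1, and the transcription factor gene E2f2 rose by 0.78 ± 0.13. The median deviation of the 28 histone genes from the control mean was -0.48, -0.43 and -0.23 on the GREM1 arrays, -0.19, 0.083 and 0.18 on the BMP4 arrays, and -0.079, -0.12 and 0.24 on the control arrays. For the replication genes it was -0.48, -0.40 and -0.23 on the GREM1 arrays, -0.087, -0.042 and 0.25 on the BMP4 arrays, and -0.13, -0.055 and 0.20 on the control arrays. Both lists were lowest on GREM1 arrays and highest on replicate 3 of each group, and the part of the cell cycle in the histone values was not tested. Of 14 cell cycle inhibitor genes 2 rose and 0 fell with GREM1 (3 and 1 with the block), with a list median of 0.079. They were the CDK inhibitor gene Cdkn1c, by 2.00 ± 0.24 (limma, adjusted p = 0.00321), and Gas1, by 0.33 ± 0.078 (adjusted p = 0.0476). Of 13 myogenic markers 3 rose, Cdh15, Itga7 and Mymx, and 0 fell (5 and 1 with the block). In bulk RNA, fewer cells in S phase and less histone RNA per cell cannot be told apart. Of the markers of fibroblasts, endothelial cells, leukocytes and pericytes that passed the filter (4, 4, 3 and 5), 0 changed with GREM1 in limma, and with the block 1 fibroblast marker was lower and 1 pericyte marker higher. Between BMP4 and GREM1 the pericyte markers Abcc9, lower with BMP4 by 0.91, and Cspg4, higher by 0.56, passed (limma, adjusted p = 0.0370 and 0.0132). With the block 2 were higher and 2 lower, though the replicate numbers of BMP4 and GREM1 were not taken as pairs. The mean level of each of these 4 lists was taken over all markers measured (8, 8, 6 and 6), those below the filter included. It lay at 4.57 to 4.59, 3.93 to 4.04, 4.18 to 4.25 and 5.22 to 5.32 on the GREM1 arrays and at 4.64 to 4.71, 3.91 to 3.98, 4.23 to 4.26 and 5.15 to 5.25 on the control arrays.

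**Figure D4:**
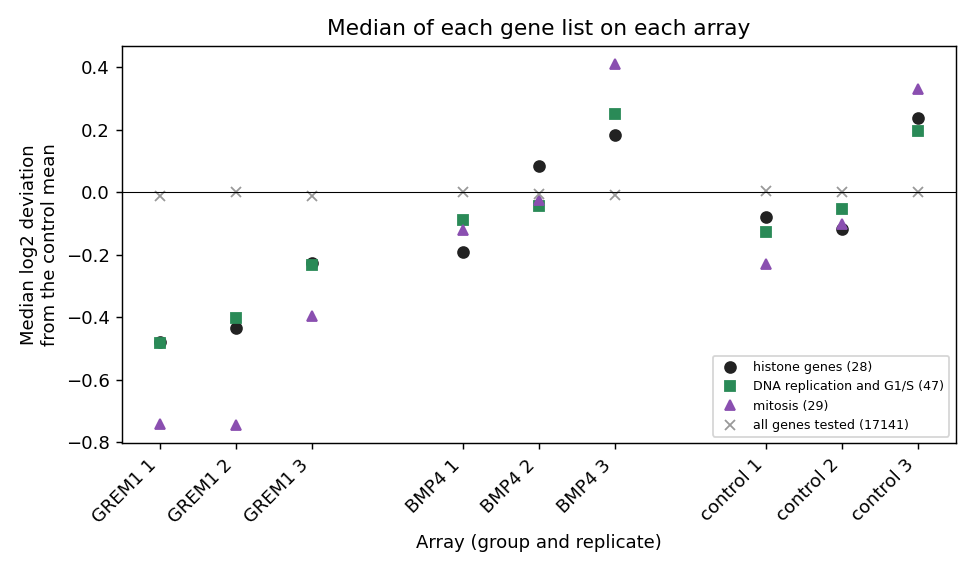
Median over each gene list of the log2 deviation from the control mean (vertical axis) on each of the 9 arrays (horizontal axis), for 28 histone genes, 47 DNA replication and G1/S genes, 29 mitosis genes and all 17141 genes tested. Histone and replication medians lie below 0 on the 3 GREM1 arrays and are highest on replicate 3 of each group, while the median of all genes stays near 0.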

How the data were processed

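RNA of 9 mouse myoblast samples was amplified as whole transcriptome and read on 1 array each. The authors deposited log2 values. Per the submitters' processing notes, these came from RMA in Affymetrix Expression Console. RMA corrects background, normalizes between arrays and summarises probe sets. The array model and build are not given here. Precision is limited by having 3 arrays a group. Of 24973 probe sets 24015 had 1 gene symbol, none had several and 958 had none and were left out. For 4 genes with more than 1 probe set, none of them a member, the one brightest on average was taken. All 39 members were found in the RefSeq gene table under the same symbol. Promoter windows are from RefSeq, build GRCm38.p6.

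Groups were compared with limma 3.58.1 under R 4.3.3 (lmFit, then eBayes, two-sided, Benjamini-Hochberg over all 17141 genes tested in each comparison, threshold 0.05) on all 9 arrays, with 6 residual degrees of freedom. The fit was also run on simulated data with independent arrays. The planted differences were larger than any histone difference between GREM1 and control, so that run does not bear on calls of their size. Deviations of same-numbered arrays from their group means correlated at 0.242, 0.118 and 0.473 for GREM1 and control and at 0.340, 0.170 and 0.580 for BMP4 and control, all above 0.1, so that these numbers were taken as pairs. For BMP4 and GREM1 they were 0.223, 0.0884 and 0.423 and were not. The block was still fitted to all 9 arrays at once, so that it also joined BMP4 and GREM1 arrays of the same number. The numbers come from the sample titles.

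"Rose" and "fell" are used of genes past the threshold. Members and gene lists were chosen with earlier results of these data known. Named were members past the threshold, all tested linker histones, and per core class the 4 members with the smallest p for GREM1 and the 2 for BMP4. H2ac6, H2bc4, H2bc6, H2bc7 and H2bc21 were added after their values were seen. In each list up to 4 genes with the smallest p were eligible. Alternatives were the replicate block, only the groups compared, a variance trend, array weights, quantile normalization once more, median centring, no filter, a filter at the 50th percentile, the mean of probe sets and each array left out.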

Additional observations from a re-analysis of the deposited data

How the results depend on the processing

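Without the filter on dim genes, over all 39 members, the median difference was -0.21 for GREM1 minus control and 0.19 for BMP4 minus GREM1, since dim genes near 0 then count. Members that fell with GREM1, 1 in the fit reported, numbered 7 with the replicate block, 2 with only the groups compared, with array weights and with quantile normalization once more, and 3 with the filter at the 50th percentile. Members higher with BMP4 than with GREM1, 2 in the fit reported, numbered 12 with the replicate block, 8 with array weights, 4 with quantile normalization once more, 0 with each array centred on its median and 1 without the filter, and 1 was lower with array weights (H2bc8). With only the groups compared the number was again 2, but of different genes (H1f10 and H1f3, sharing 0 with the fit reported). Shares of all genes were counted only for the fit reported and for the replicate block. The counts under the other settings therefore cannot be set beside a share of all genes. The replicate numbers do not pair BMP4 with GREM1 by the check used, so that the 12, beside 6.95% of all genes, are given only here (r = 0.0884 for number 2, and BMP4 replicate 1 correlated best with another number). When single arrays were left out, 0 to 2 members fell and 0 to 1 rose with GREM1, and 0 to 4 were higher with BMP4 than with GREM1. With the block and without 1 replicate number in every group, a setting chosen after seeing the data, 1 to 8 fell and 0 to 1 rose with GREM1, and 4 to 13 were higher with BMP4 than with GREM1. BMP4 minus control gave 0 calls under every alternative run. Over the named members and settings 1331 values kept their side of the threshold, 68 gained the call, 29 lost it and 0 passed it with the opposite sign. Probe sets dimmer than the filter, 11 members among them, were not tested.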
